A study of Capra hircus with 2 samples.

Results

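Dividing stromal cells are the connective-tissue cells of the fetal goat (Capra hircus) ovary whose transcripts mark them as replicating or dividing. The members were chosen by their measured UMIs (unique molecular identifiers, each 1 captured transcript), as the cell barcodes with at least 500 genes detected, 4 or more UMIs summed over TOP2A, CENPF, TPX2 and CKAP2, and at least 2 of these 4 genes detected. A member also had at least 1 UMI of COL1A1, COL1A2 or TCF21, which mark stroma, and 0 UMIs of PECAM1, KDR, KRT8, FST, AIF1, FIGLA and DDX4, which mark endothelial, epithelial, pregranulosa, myeloid and germ cells. In all 285 of 12743 barcodes met the rule, 100 of 4397 at embryonic day 85 (E85) and 185 of 8346 at the later embryonic stage E125. The series holds 1 droplet single-cell library of ovary from female fetuses for each stage, 2 in all, and neither a genotype nor a treatment is labelled. The number of fetuses behind each library is not stated in the labels. Although the extraction protocol is worded for testes, both samples are labelled as ovary of female sex, which is how they are treated here. With 1 library per stage nothing was tested: intervals are 95% intervals that cover counting error only, and every difference describes these libraries and these barcodes.

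Ovarian stroma arises from mesenchyme that multiplies during fetal life, surrounds the germ cell nests, and later gives rise to interstitial and thecal cells. A dividing cell first switches on the genes that license and copy its DNA and make its histones, and then those that condense chromosomes, build the spindle, hold the kinetochores and split the cell. TOP2A untangles sister chromatids, CENPF binds kinetochores, TPX2 activates the spindle kinase Aurora A, and CKAP2 stabilises spindle microtubules, so the rule leans toward cells late in this sequence.

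The members made up 3.70% of the 2700 stromal barcodes at E85 (exact binomial interval 3.02 to 4.49) and 4.34% of the 4262 at E125 (3.75 to 5.00). With every barcode thinned to 2000 UMIs the shares were 3.71% (80 of 2156) and 4.33% (152 of 3508). The intervals of the stages overlapped in both forms. Of the other stromal barcodes, 2204 at E85 and 3393 at E125 had 0 UMIs of the 4 dividing genes and serve below as the non-dividing barcodes. The remaining 396 and 684 had at least 1 such UMI without meeting the rule. Among all barcodes that met the dividing part of the rule, 183 at E85 and 490 at E125, the members were 54.6% (47.1 to 62.0) and 37.8% (33.4 to 42.2), and 72.7% and 55.5% after thinning. Another 48 and 132 of these dividing barcodes had no stromal UMI. A further 35 and 173 had stromal UMIs but also at least 1 UMI of the 7 excluded genes, a step that 19 and 44 of them failed on a single UMI. The barcodes so removed were deep, with median depths of 6315 and 22785 UMIs, and FIGLA, a transcription factor of oocytes, was present in 10 and 103 of them.

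The members were deeper than the cells they are compared with. Depth per member ran between 1095 and 22005 UMIs in the E85 library (median 4258) and between 1331 and 35957 in the E125 library (median 5449), while the non-dividing barcodes had medians of 2729.5 and 2769 UMIs. Their sums were 483405 and 1116941 UMIs, against 6404142 and 10545107 in non-dividing barcodes, and the libraries held 17748948 and 49692252 in all. Levels are given as CPM, the UMIs of a gene scaled to 1000000 UMIs of the group. No barcode sequence was shared between the members of the 2 libraries (0 of 13 sequences shared between the libraries as wholes).

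The genes of the rule are given as a description. The median sum of the 4 dividing genes was 27.5 UMIs at E85 (4 to 216) and 33 at E125 (4 to 270). TOP2A was detected in 91.0% and 92.4% of members, CENPF in 93.0% and 89.7%, TPX2 in 87.0% and 91.4%, and CKAP2 in 95% and 94.6%. At the limit itself, all 9 stromal barcodes with a sum of 4 at E85 and all 9 at E125 were members, and the 16 and 30 with a sum of 3 were not. The 3 stromal genes of the rule had a median sum of 6 UMIs at E85 and 8 at E125, against 6 and 6 in the shallower non-dividing barcodes. Per UMI they were lower in members, at 1680 against 2370 CPM at E85 and 2586 against 3263 CPM at E125. COL1A1 was detected in 77.0% and 84.3% of members, COL1A2 in 64.0% and 80.0%, and TCF21 in 81.0% and 82.2%. Membership rested on a single stromal UMI in 7 and 15 members. Barcodes of cell types that should lack these genes also had some: 25.2% of 127 endothelial barcodes at E85 and 32.2% of 856 at E125, at median depths of 7052 and 6292 UMIs, had at least 1 UMI of the 3 stromal genes. Among myeloid barcodes the shares were 41.8% of 79 and 27.9% of 129, at median depths of 7223 and 5621 UMIs. The median was 0 UMIs in each of these groups. Free RNA and doublets cannot be told apart as a source of these UMIs, and the members that rest on a single stromal UMI cannot be told from this background.

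Markers fixed for stroma and for other cell types were read in the members to check the label. The 6 genes of the stromal list that have a feature and that the rule did not use (PDGFRA, DCN, LUM, NR2F1, NR2F2 and POSTN) summed to 3444 CPM in E85 members and 3683 CPM in E125 members, against 4166 and 4853 CPM in non-dividing barcodes. Their median was 13 and 14 UMIs per member, and 0 of 100 and 3 of 185 members had none. The endothelial list had 8 UMIs in E85 members (16.5 against 19.7 CPM in non-dividing barcodes), with CDH5, VWF and CLDN5 at 0. In E125 members it had 39 UMIs (34.9 against 19.3 CPM), with TIE1 and CLDN5 at 0. Of these 39, 19 lay in the deepest member, and the level was 18.5 CPM without it. The myeloid list had 3 and 4 UMIs in all, with CSF1R, TYROBP and CD163 at 0, the lymphoid list 6 and 0, and CD3E and CD3D were at 0 in both. The germ cell list had 109 and 253 UMIs, or 225 and 227 CPM, against 193 and 289 CPM in non-dividing barcodes. Glial markers summed to 265 and 861 UMIs, mostly NCAM1, with SOX10, CDH19, ERBB3 and GFAP at 0. Their levels were 548 and 771 CPM, against 465 and 620 CPM in non-dividing barcodes. At least 5 glial UMIs were held by 18 of 100 and 85 of 185 members. Among the shallower non-dividing barcodes the counts were 92 of 2204 and 323 of 3393. The pregranulosa list stood at 76.5 and 86.8 CPM in members, against 104 and 120 CPM in non-dividing barcodes. The surface epithelium list stood at 8.27 and 15.2 CPM, against 24.5 and 20.7, and the erythroid list had 1 UMI at each stage. Judged by summed CPM, these lists did not go against the stromal label. Glial UMIs were nevertheless spread over many members, and 3 single barcodes stood apart. The deepest E85 member (22005 UMIs) held 110 of the 117 UMIs of a wider immune gene set among members, and all 46 of LCP1, an actin bundler of blood cells. The deepest E125 member (35957 UMIs) held 447 of 830 UMIs of a perivascular gene set, and without it the perivascular list went from 1355 to 770 CPM, against 892 CPM in non-dividing barcodes. Another E125 member, of 4714 UMIs and with 1 stromal UMI, held 23 of the 33 immune-set UMIs of that stage. The perivascular set, which the rule does not exclude, was not confined to single barcodes. Of members, 3 of 100 at E85 and 17 of 185 at E125 (9.19%) had 5 or more of its UMIs. Among non-dividing barcodes the shares were 1.41% and 8.34%. On the wider perivascular list of 10 genes, 22 of 100 and 51 of 185 members had 5 or more UMIs. Among the shallower non-dividing barcodes the counts on that list were 124 of 2204 and 504 of 3393. The immune and perivascular sets and the single barcodes were picked after the values were seen. Their part in the results was not tested beyond the values given below without these barcodes.

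Transcripts of mitosis were far more abundant in members than in non-dividing barcodes at both stages. The 103 genes of a mitosis set (cyclins and kinases, kinetochore, spindle and cytokinesis genes, without the rule's genes) summed to 22459 CPM in E85 members and 1773 CPM in non-dividing barcodes, a ratio of 12.7 (12.3 to 13.0). At E125 the levels were 20582 and 1587 CPM, a ratio of 13.0 (12.7 to 13.2). A member held a median of 84.5 mitosis UMIs at E85 (6 to 423) and 92 at E125 (4 to 494), against 4 and 4 in a non-dividing barcode. Since the rule chose members by 4 genes of the same programme, this contrast describes the choice and supports nothing. The same holds for the counts that follow. Genes with at least 50 UMIs over both compared groups counted as measured, and as higher or lower if past 2-fold. Over all genes, 6.93% of 7258 at E85 and 6.92% of 8590 at E125 were higher in members, and 11.9% and 10.4% were lower. The median log2 ratio of all measured genes was -0.14 at E85 and -0.13 at E125, and with DESeq2 size factors -0.01 and -0.00. Of the genes past 2-fold, 36.8% and 40.0% were higher, or 47.2% and 51.1% with those size factors.

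At E85 the widest ratios belonged to spindle and kinetochore genes. ASPM, which organises spindle poles, stood at 393 CPM in members and 0.312 CPM in non-dividing barcodes, where it had 2 UMIs, a ratio of 1259 (344 to 10468). DEPDC1 (141 against 0.312 CPM) and the spindle checkpoint kinase gene TTK (114 against 0.312) rested on equally few UMIs outside the members. The motor gene KIF11, which pushes spindle poles apart, stood at 403 and 1.41 CPM, 287-fold higher (148 to 637). KIF2C, a motor that takes microtubules apart, stood at 108 CPM in members, KIF4A, a chromosome motor, at 209 and KIF23, a motor of the dividing midzone, at 317. NDC80, which couples kinetochores to microtubules, stood at 395 CPM and AURKB, the kinase that corrects that coupling, at 244. These 5 genes had under 1.5 CPM each in non-dividing barcodes. Outside the cell cycle lists the histone genes led: H3C8 stood at 918 against 3.28 CPM, H1-5 at 1510 against 28.4 and H1-1 at 290 against 4.06. FBXO5, an inhibitor of the anaphase-promoting complex, was 45.8-fold higher, and CDKN3, a phosphatase of cyclin-dependent kinases, 37.3-fold.

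At E125 the same kinds of gene led. KIF11 stood at 466 against 0.759 CPM, 615-fold higher (310 to 1432), and the kinesin gene KIF14 at 114 against 0.0948 CPM, which is 1 UMI. PRR11 (136 CPM) and CDCA3 (85.9 CPM), both cell cycle genes, had 0 UMIs in non-dividing barcodes, and against a floor of 3 UMIs over that group they were at least 478-fold and at least 302-fold higher. CDCA2, which directs a phosphatase to chromosomes, was 371-fold higher, HJURP, the chaperone of the centromeric histone, 334-fold, and NEK2, a centrosome kinase, 232-fold. AURKB was 227-fold higher and KIF20A, a motor of cytokinesis, was at 64.5 CPM in members with 3 UMIs outside them. Outside the lists NEIL3, a DNA glycosylase, was 190-fold higher, H3C8 189-fold, the helicase gene ERCC6L 136-fold and the formin gene DIAPH3 91.7-fold. Every one of these E125 genes stayed past 2-fold in each alternative that measured it.

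By role, nearly all measured mitosis genes were higher in members. At E85, 15 of 16 measured mitotic cyclins and kinases were higher and 0 lower (median log2 ratio 5.49), and 18 of 18 at E125 (4.82). CCNB2, a mitotic cyclin, stood at 356 against 3.12 CPM at E85 and 139 against 4.08 at E125. CDK1, the kinase it activates, stood at 219 against 2.03 and 89.5 against 1.23. Of centromere and kinetochore genes, 18 of 20 and 20 of 20 were higher (medians 4.76 and 4.79). Among them CENPE, a kinetochore motor, was 210-fold and 215-fold higher. Of spindle genes and kinesins, 23 of 25 and 26 of 28 were higher (5.09 and 5.44), and HMMR, a spindle pole protein, was 117-fold and 95.1-fold higher. The tubulin TUBA1B, which non-dividing barcodes also had at 416 and 278 CPM, was only 6.78-fold and 6.80-fold higher. Of anaphase and cytokinesis genes, 12 of 14 and 17 of 19 were higher (4.46 and 4.73). ANLN, the scaffold of the cleavage furrow, stood at 447 and 631 CPM in members, 84.2-fold and 155-fold higher.

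**Figure D1:**
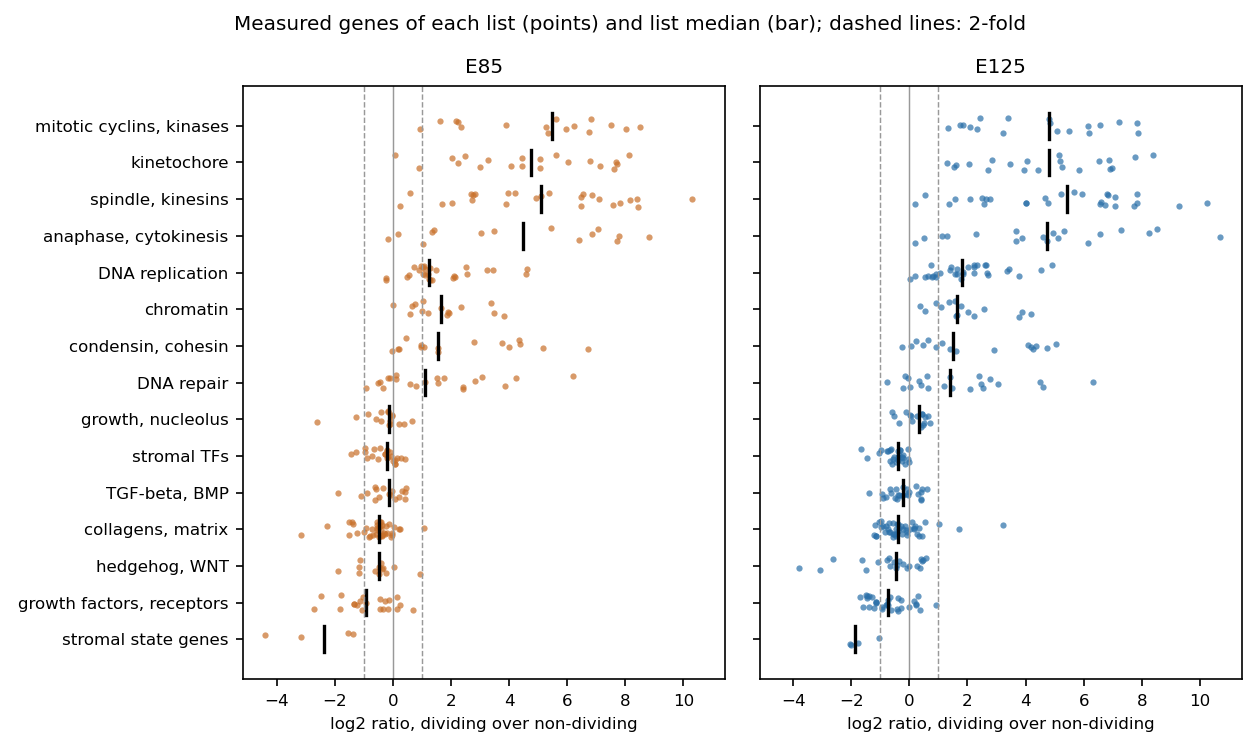
Log2 ratio of CPM in dividing over non-dividing stromal barcodes for each measured gene of 15 gene lists, at E85 and at E125, with 1 point per gene, the list's median as a bar, and no replicate error since each stage is 1 library. The 4 mitosis lists have medians from 4.46 to 5.49, and the replication list stands at 1.23 and 1.80. Medians lie below 0 at both stages for the growth factor, stromal state, matrix, hedgehog and WNT, TGF-beta and stromal transcription factor lists. The median of all measured genes is also below 0, at -0.14 and -0.13.

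Genes of DNA replication were higher by smaller ratios. Of replication licensing and fork genes, 20 of 27 were higher at E85 (median 1.23) and 23 of 32 at E125 (1.80), with 0 lower at either stage. PCNA, the sliding clamp of the replication fork, stood at 101 against 23.0 CPM at E85, 4.42-fold higher (3.13 to 6.14), and 76.1 against 12.1 at E125, 6.27-fold higher (4.71 to 8.31). MCM3, a subunit of the replicative helicase, was 2.55-fold and 3.63-fold higher. The checkpoint mediator gene CLSPN was 24.2-fold and 30.2-fold higher. The replication set as a whole (42 genes) stood at 3362 against 1057 CPM at E85, a ratio of 3.18 (3.01 to 3.36), and 3703 against 996 CPM at E125, a ratio of 3.72 (3.59 to 3.85). UHRF1, which carries DNA methylation through replication, was 24.7-fold and 23.3-fold higher, and ATAD2, a chromatin factor of the replicating genome, stood at 726 against 65.9 CPM and 910 against 84.0. RRM2, the cell-cycle subunit of the enzyme that makes deoxynucleotides, stood at 86.9 against 2.65 CPM and 68.0 against 0.474, and its partner RRM1 was 3.45-fold and 4.89-fold higher. The other genes of nucleotide synthesis stood apart from these: with DCK, a salvage kinase, only 3 of 12 at E85 and 3 of 13 at E125 were higher, with medians of 0.04 and 0.24.

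Chromosome structure and cohesion genes had 10 of 16 higher and 0 lower at E85, and the same counts at E125. The higher ones were the same genes at both stages, among them the cohesion genes SMC3, RAD21 and ESCO2. The condensin genes SMC2 and SMC4, which compact chromosomes for mitosis, were well above the non-dividing level: SMC2 stood at 552 against 40.9 CPM at E85 and 723 against 40.1 at E125, and SMC4 was 20.6-fold and 19.2-fold higher. The cohesin gene SMC3, whose product also holds chromatin loops between divisions, was 2.11-fold and 2.19-fold higher. STAG1, another cohesin subunit, stood at 72.4 against 73.5 CPM and 72.5 against 85.4. Of chromatin genes, 11 of 15 and 12 of 15 were higher. The variant histone H2AZ1 stood at 2873 against 277 CPM and 2971 against 203, LMNB1 of the nuclear lamina at 323 against 23.0 and 680 against 37.7, and EZH2, the methyltransferase of Polycomb, was 11.2-fold and 13.7-fold higher. Of genes of homologous recombination and the Fanconi pathway, which mend broken and crosslinked DNA, 11 of 21 and 12 of 21 were higher, among them BRCA1 (18.8-fold and 24.3-fold) and RAD51AP1 (73.5-fold and 80.2-fold).

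Replication-dependent histone genes formed a further group, which was put together after its values were seen. These 15 genes summed to 7635 CPM in E85 members and 476 CPM in non-dividing barcodes, a ratio of 16.0 (15.3 to 16.8), and to 2505 and 246 CPM at E125, a ratio of 10.2 (9.67 to 10.8). Most transcripts of these genes lack a poly(A) tail, so a 3' kit that captures poly(A) sees only part of them. Several of these genes are near-identical copies, and how the authors' counting split reads between copies is not stated in the labels.

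Members differed widely among themselves in how far mitosis and replication transcripts went together. Replication UMIs ran from 0 to 74 per member at E85 (median 10) and from 1 to 81 at E125 (median 19), against a median of 2 in non-dividing barcodes of both stages. Per 10000 UMIs, replication genes had 27.0 (0 to 122) at E85 and 34.1 (2.04 to 143) at E125, and mitosis genes 242 (13.7 to 546) and 189 (7.60 to 753). Replication genes held 13.0% of the replication and mitosis UMIs at E85 and 15.2% at E125. In 36 E85 and 37 E125 members there were 5 or fewer replication UMIs. More replication than mitosis UMIs were found in 0 members at E85 and 8 at E125.

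**Figure D2:**
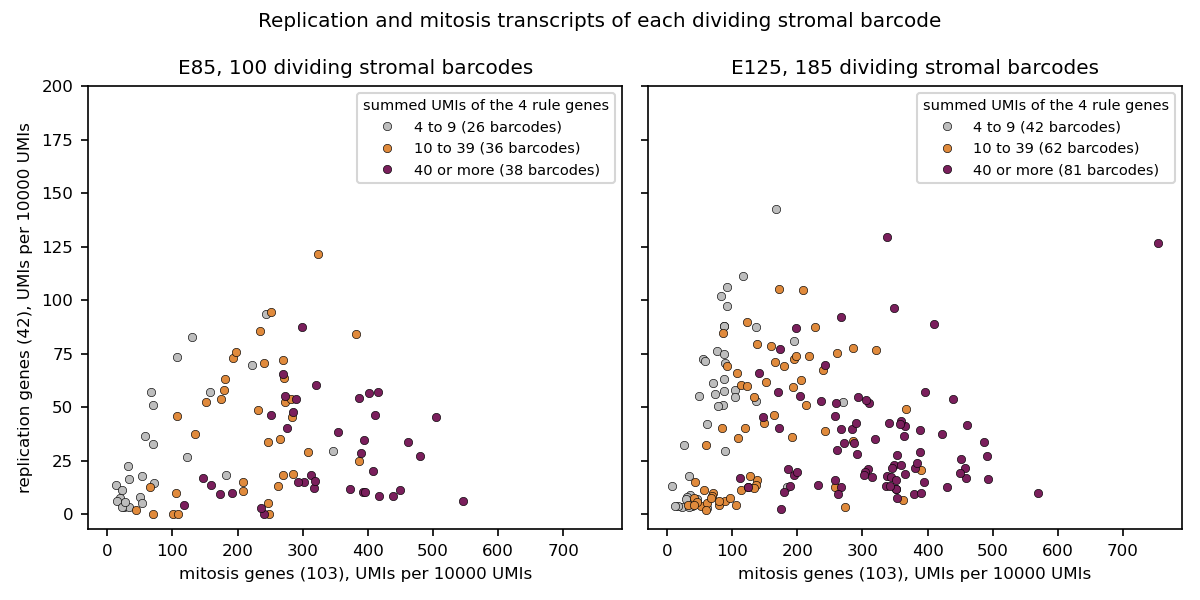
Each point is 1 dividing stromal barcode, with the UMIs of 103 mitosis genes per 10000 UMIs on the horizontal axis, those of 42 replication genes on the vertical axis, and colour for the summed UMIs of the 4 rule genes. Medians are 242 and 27.0 at E85 and 189 and 34.1 at E125, and barcodes with 40 or more rule-gene UMIs lie toward the right.

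To describe this spread, the stromal barcodes were divided by their summed UMIs of the 4 rule genes into 0, 1 to 3, 4 to 9, 10 to 39, and 40 or more, a division made after the values were seen and one that also follows depth. Mitosis transcripts climbed through all the bands of members, at 6839, 20015 and 31174 CPM at E85 and 6168, 13121 and 30890 at E125. Replication transcripts did not follow that order. They stood at 2941, 4420 and 2831 CPM in the 3 bands of E85 members and at 4237, 3928 and 3352 CPM in those of E125. PCNA stood at 117, 94.7 and 48.3 CPM at E125, where the interval of the top band (31.8 to 70.3) lay below that of the band of 4 to 9 (77.2 to 171). At E85 PCNA rested on 11, 22 and 16 UMIs in the 3 bands, with overlapping intervals, and no order is read. MCM3 stood at 473, 287 and 111 CPM at E125, again lowest in the top band (85.0 to 142, against 388 to 571 in the band of 4 to 9). Its E85 levels rested on 19, 27 and 16 UMIs, and the intervals of the first and last band overlapped. ASPM, by contrast, stood at 39.1, 175 and 701 CPM at E85 and 47.7, 281 and 1352 at E125. Histone transcripts stood at 2579, 10318 and 8092 CPM in E85 members, highest in the middle band, and at 504, 2538 and 3310 in those of E125, highest in the top band. The barcodes with 1 to 3 rule-gene UMIs, which are not members, stood close to the non-dividing ones, with 2433 CPM of mitosis genes against 1773 at E85 and 1781 against 1587 at E125.

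**Figure D3:**
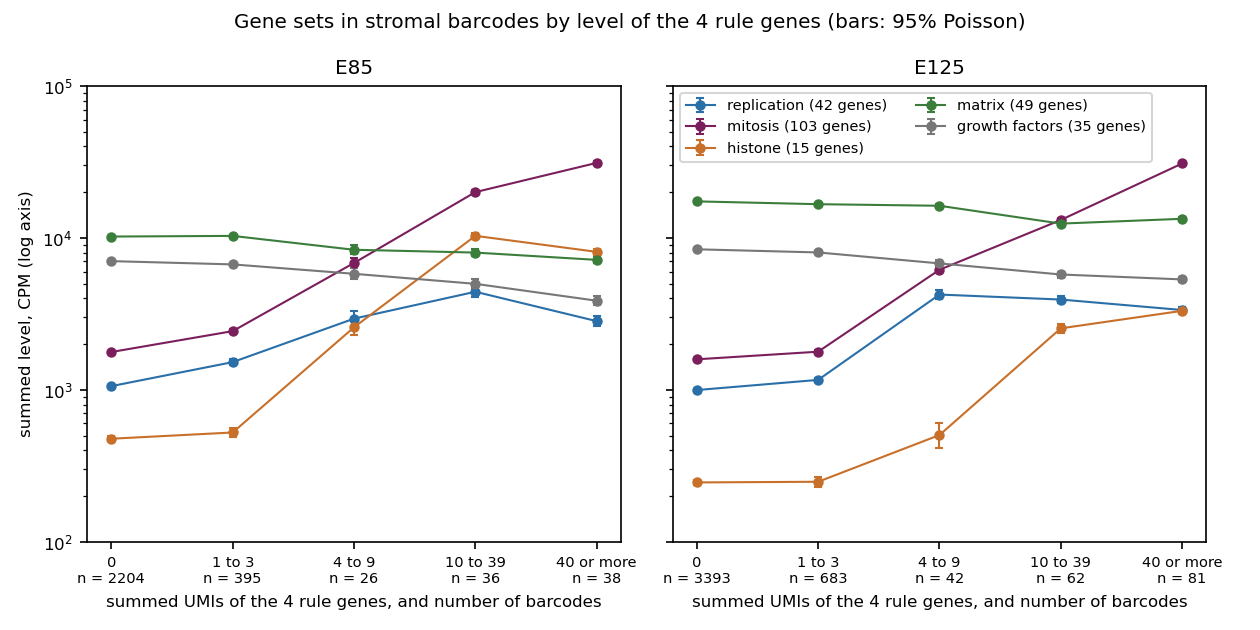
Summed CPM (log axis) of 5 gene sets in stromal barcodes divided by the summed UMIs of the 4 rule genes, with the number of barcodes under each band and Poisson 95% bars for counting error. Mitosis genes reach 31174 and 30890 CPM in the top band, while replication genes are at 2831 and 3352 CPM there, below 4420 CPM in the E85 band of 10 to 39 and 4237 CPM in the E125 band of 4 to 9.

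Regulators of the step from rest into replication went both ways. At E85, 2 of 6 measured were higher, RBL1 and E2F8, and 1 lower, CCND1. At E125, 4 of 8 were higher, E2F7, RB1, RBL1 and E2F8, and 2 lower, CDK6 and CCND1. Over all genes 18.8% and 17.3% were past 2-fold in either direction. CCND1, the cyclin D that drives cells out of rest, was lower in members, at 74.5 against 204 CPM at E85, 2.74-fold lower (1.97 to 3.94), and 41.2 against 112 CPM at E125, 2.73-fold lower (2.03 to 3.75). It was detected in 27.0% and 10.8% of members and 36.7% and 21.8% of non-dividing barcodes. After thinning the shares were 12.1% and 5.62% of members and 29.4% and 16.6% of non-dividing barcodes. E2F8, a repressor that follows the start of replication, was higher, at 89.0 against 1.25 CPM and 83.3 against 0.853. Of the inhibitors of cyclin-dependent kinases and genes of rest, 3 of 12 were higher and 1 lower at E85, and 2 of 16 higher and 3 lower at E125. CCNG2, a cyclin of cells leaving the cycle, was 2.06-fold and 2.46-fold higher. CDKN1C, an inhibitor of cyclin-dependent kinases, stood at 82.7 against 135 CPM at E85 and 182 against 389 CPM at E125, 2.14-fold lower. Growth and nucleolus genes, which serve ribosome building, had 0 of 16 higher and 2 lower at E85 and 0 of 16 in either direction at E125. Nuclear genes of oxidative phosphorylation had 0 of 10 past 2-fold at E85 and 1 of 10, UQCRC1, at E125. Of 9 glycolysis genes, only PFKP, a phosphofructokinase, was higher, 5.75-fold and 3.63-fold. PGAM1 was lower at E85, and 0 were lower at E125.

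Stromal transcription factors and several abundant stromal genes were mostly within 2-fold of the non-dividing level. NR2F2, a transcription factor of mesenchyme, stood at 660 against 749 CPM at E85 and 724 against 756 at E125. WT1, a transcription factor of gonadal somatic cells, stood at 252 against 344 and 250 against 382. Of 24 and 27 stromal transcription factors, 0 were higher and 2 and 3 lower. The lower shares, 8.33% and 11.1%, were near those over all genes, 11.9% and 10.4%. Over all genes 6.93% and 6.92% were higher. Depending on the setting, up to 5 of these factors were higher at E85 and up to 1 at E125. DCN, a small proteoglycan of the matrix, stood at 2213 against 2882 CPM and 2501 against 3677. PDGFRA, a growth factor receptor of mesenchyme, stood at 203 against 185 CPM and 226 against 276, and PTN, a secreted growth factor, at 2553 against 2761 and 2552 against 3319. None of these genes passed 2-fold.

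Matrix genes as a set stood at 7685 against 10205 CPM at E85 and 13684 against 17392 CPM at E125, 1.33-fold and 1.27-fold lower. By gene, 1 of 40 was higher and 7 lower at E85 (median -0.46), and 3 of 45 higher and 5 lower at E125 (-0.40). MMP2, a protease that cuts collagen, was 2.35-fold lower at both stages, at 139 against 325 CPM and 207 against 485. THBS1, an adhesive glycoprotein, was 2.87-fold and 2.23-fold lower. LUM, a proteoglycan of collagen fibrils, stood at 275 against 235 CPM at E85 and 216 against 107 at E125, and 30.7% of its E125 UMIs in members came from 1 barcode. The other higher matrix genes of E125 drew most of their UMIs from 1 barcode, which gave 71.2% of MFAP5 and 61.8% of TNC UMIs.

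Growth factors, their binding proteins and receptors held the largest number of lower genes among the stromal lists. Of 21 measured, 0 were higher and 10 lower at E85 (median -0.90), and of 32, 0 were higher and 12 lower at E125 (-0.74), where 11.9% and 10.4% of all genes were lower. This count depended on the depth of the cells compared. Against non-dividing barcodes of at least 3039.25 UMIs at E85 and 4069 at E125 (836 and 697 barcodes), 6 of 18 and 2 of 24 were lower, with medians of -0.85 and -0.39, where 7.79% and 4.6% of all genes were lower. IGFBP5, which binds insulin-like growth factors, stood at 587 against 1490 CPM at E85, 2.54-fold lower (2.25 to 2.86), and 656 against 1721 at E125, 2.62-fold lower (2.43 to 2.83). IGFBP6, another binding protein, was 2.37-fold and 2.31-fold lower. CXCL12, a chemokine of stroma, was 3.53-fold lower at E85 (2.34 to 5.60) and 1.69-fold lower at E125. IGF1 itself stood at 18.6 against 63.6 CPM at E85 and 63.6 against 122 at E125, where 38.0% of its UMIs in members came from 1 barcode. IGFBP7 went different ways, 2.04-fold lower at E85 and 1.16-fold higher at E125. DLK1, an imprinted ligand of immature cells, stood at 126 against 153 CPM at E85 and 24.2 against 73.5 at E125.

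The 4 genes MGP, CA3, PENK and NPY, a list drawn from earlier results of these libraries, were all lower in members at both stages (medians -2.36 and -1.88). Over the alternatives the number counted as lower ranged from 3 to 4 at E85 and from 2 to 4 at E125. MGP, an inhibitor of calcification, stood at 26.9 against 241 CPM at E85, 8.98-fold lower (5.23 to 16.9), and 841 against 1734 CPM at E125, 2.06-fold lower (1.93 to 2.21). Its 13 E85 UMIs lay in 5 members, and 1 barcode held 53.8% of them. CA3, a carbonic anhydrase, was 2.94-fold lower (2.23 to 3.96) and 3.38-fold lower (2.56 to 4.56), and PENK, the enkephalin precursor, 2.59-fold and 4.02-fold lower. NPY, a neuropeptide, had 2 UMIs in E85 members, 4.14 against 87.0 CPM. Among the bands of rule-gene UMIs, MGP stood at 1667, 800.2 and 524 CPM in E125 members, lowest in the top band. In E85 members the bands held 4, 7 and 2 UMIs of MGP, too few for an order.

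**Figure D4:**
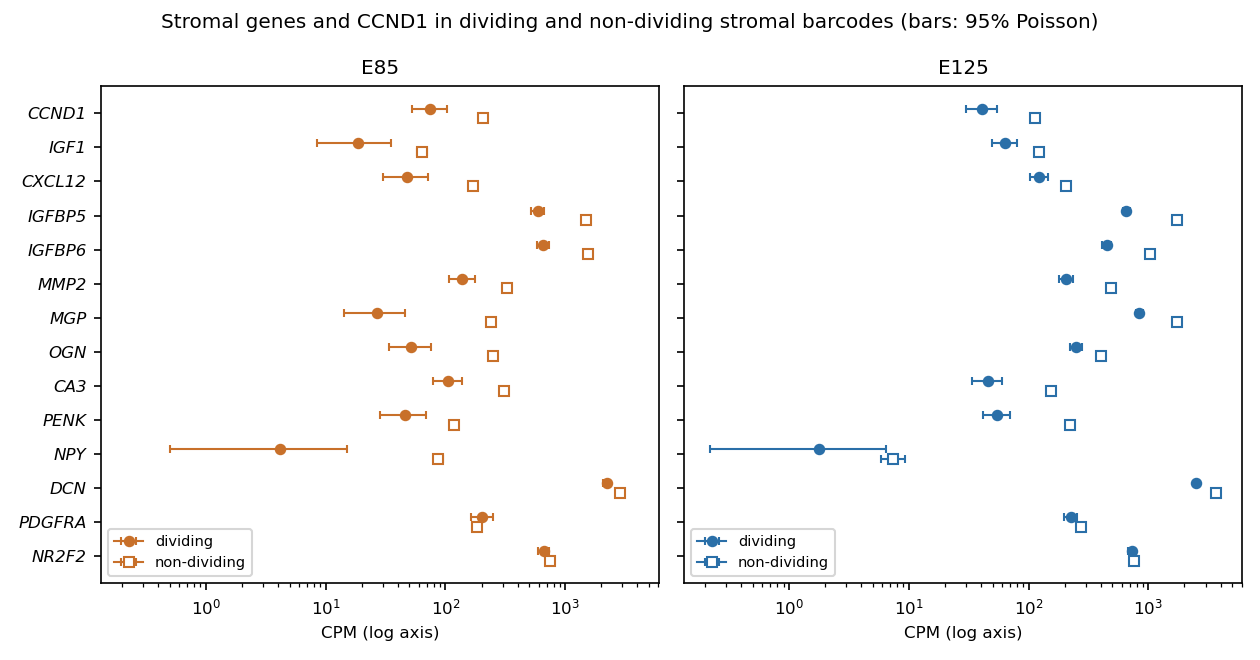
CPM (log axis) of 14 genes (stromal genes and CCND1) in dividing and non-dividing stromal barcodes at E85 and E125. Bars are exact Poisson 95% intervals for counting error. DCN, PDGFRA and NR2F2 lie close in both groups, and IGFBP5, IGFBP6, MMP2, CA3 and PENK lie more than 2-fold lower in the dividing barcodes at both stages.

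Other genes among the 10 lowest ratios at E85 were ASPN and OGN, small proteoglycans of the matrix, at 16.5 against 109 and 51.7 against 249 CPM. ELANE, known as neutrophil elastase, was 7.28-fold lower at E85 and 4.09-fold lower at E125. ISG15, an interferon-induced protein, was 4.94-fold lower at E85, a ratio that fell short of 2-fold after thinning (log2 -0.88), and 3.92-fold lower at E125. The rest at E85 were GRIN2B, a glutamate receptor subunit (5.98-fold), FAM241B (5.09-fold), CALCRL, a peptide hormone receptor (4.64-fold), and AK5, an adenylate kinase (4.29-fold). At E125 the lowest were LRP1, an endocytic receptor (24.2 against 99.2 CPM), CCN3, a matricellular protein (20.6 against 82.9), and PENK. The channel gene ANO4, RASGEF1B, the gap junction gene GJA1, LIMCH1 and TMEM176B were from 3.45-fold to 3.69-fold lower. Of steroid genes, only PGR, the progesterone receptor, was higher, at E85, and CYP26B1, which degrades retinoic acid, the estrogen receptor gene ESR1 and STAR, which moves cholesterol into mitochondria, were lower at E125. Hedgehog and WNT pathway genes had 4 of 13 and 6 of 22 lower and 0 higher. TGF-beta and BMP genes had 2 of 17 and 1 of 25 lower and 0 higher, where 11.9% and 10.4% of all genes were lower. These counts were not stable. Over all settings, hedgehog and WNT genes had 0 to 7 higher and 1 to 6 lower at E85, and 0 to 4 and 0 to 8 at E125. TGF-beta and BMP genes had 0 to 6 higher and 1 to 5 lower at E85, and 0 to 3 and 0 to 2 at E125. As with the growth factor list, the counts of lower genes over the whole table moved with depth. The 863 at E85 and 890 at E125 became 448 and 299 against the deeper non-dividing barcodes. Higher genes then made up 49.7% and 63.3% of those past 2-fold.

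The members of the E125 library were then set beside those of the E85 library, with values in non-dividing barcodes given for the lists and many of the genes. Over all genes, 17.2% of 3793 were higher and 7.86% lower at E125 in members, and 17.4% and 10.6% of 9463 in non-dividing barcodes. Stage, library and animals cannot be told apart here. Matrix genes were higher at E125, 21 of 35 past 2-fold and 1 lower (median 1.16), against 18 of 46 and 3 in non-dividing barcodes (0.72). As a set they stood 1.78-fold higher (1.72 to 1.85) in members and 1.70-fold (1.69 to 1.72) outside them. COL4A2 of basement membranes stood at 37.2 and 204 CPM, 5.48-fold higher (6.29-fold outside the members), COL14A1 of collagen fibrils was 5.87-fold (5.35-fold) and LAMC1, a laminin chain, 6.11-fold higher (2.76-fold). POSTN, an adhesive matrix protein, was the lower one, at 89.0 and 14.3 CPM, and 48.8% of its E85 UMIs lay in 1 barcode. It was also past 2-fold lower outside the members. Of hedgehog and WNT genes 5 of 10 were higher and 0 lower: the receptor PTCH1, the WNT inhibitor NKD2, the ligand WNT5A and the decoys SFRP1 and SFRP2. Outside the members 9 of 23 were higher and 1 lower, with NKD2, WNT5A, SFRP1 and SFRP2 among the 9. Of TGF-beta and BMP genes, 4 of 12 were higher, INHBA, TGFBR3, ID1 and ID4. Outside the members 9 of 26 were higher, among them TGFBR3, ID1 and ID4. Growth factor genes had 7 of 14 higher and 2 lower in members, and 13 of 32 higher and 2 lower outside them (median 0.64). The median of 0.69 in members became 0.15 without the deepest member of each library. After thinning, which left 6 of these genes measured, it was 0.12. IGFBP2, a further binding protein of insulin-like growth factors, stood at 53.8 and 838 CPM, 15.6-fold higher (10.8-fold outside the members).

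The 10 genes with the highest stage ratios in members also had ratios above 1 in non-dividing barcodes. MGP went from 26.9 to 841 CPM, 31.3-fold (18.2 to 58.9), against 7.18-fold outside the members. It was detected in 5.00% of E85 and 74.6% of E125 members, and in 8.26% and 75.1% of non-dividing barcodes. After thinning the shares were 2.20% and 57.3% of members and 6.20% and 73.0% of non-dividing barcodes. SPON2, a secreted matrix protein, went from 6.21 to 264 CPM, 42.6-fold (41.6-fold outside the members), and SMAP1, a regulator of vesicle transport, from 2.07 (1 UMI) to 184 CPM. ID1, an inhibitor of differentiation factors downstream of BMP, had 0 UMIs in E85 members and 172 CPM at E125, at least 27.7-fold higher (33.6-fold outside the members). GAS6, a ligand of receptor kinases, CHPT1 and PLEKHA3 had 1 UMI each in E85 members, so their ratios of 28.6 (4.95 to 1145), 29.4 (5.11 to 1179) and 27.3 (4.72 to 1094) are loose. RAB21, a regulator of vesicle traffic, had 2 UMIs there and a ratio of 23.2 (6.26 to 194). For ID4, which also had 1 UMI in E85 members, 38.3% of E125 UMIs lay in 1 barcode, and the log2 ratio went from 5.13 to 4.42 without it. For ITGA7, an integrin of muscle, with 1 UMI in E85 members, 64.7% of E125 UMIs lay in 1 barcode and it was seen in 5 members, so its 29.4-fold ratio (5.11 to 1179), against 1.53-fold outside the members, rests on that barcode.

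The lowest stage ratio was that of TUBB2B, a tubulin of immature cells, at 554 CPM in E85 members and 9.85 in those of E125, 56.3-fold lower (31.0 to 114), against 24.0-fold outside the members. It was detected in 81.0% and 5.95% of members, 63.7% and 2.25% after thinning. CDC23, a subunit of the anaphase-promoting complex, was 8.63-fold lower (8.35-fold outside the members), TMEM176B 7.70-fold (5.18-fold), TSPO of the outer mitochondrial membrane 5.52-fold (2.76-fold) and DLK1 5.22-fold (2.09-fold). LCP1, at 15.2-fold, and CORO1A, at 6.79-fold, both of blood cells, had all and 89.4% of their E85 UMIs in the 1 barcode rich in immune transcripts.

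**Figure D5:**
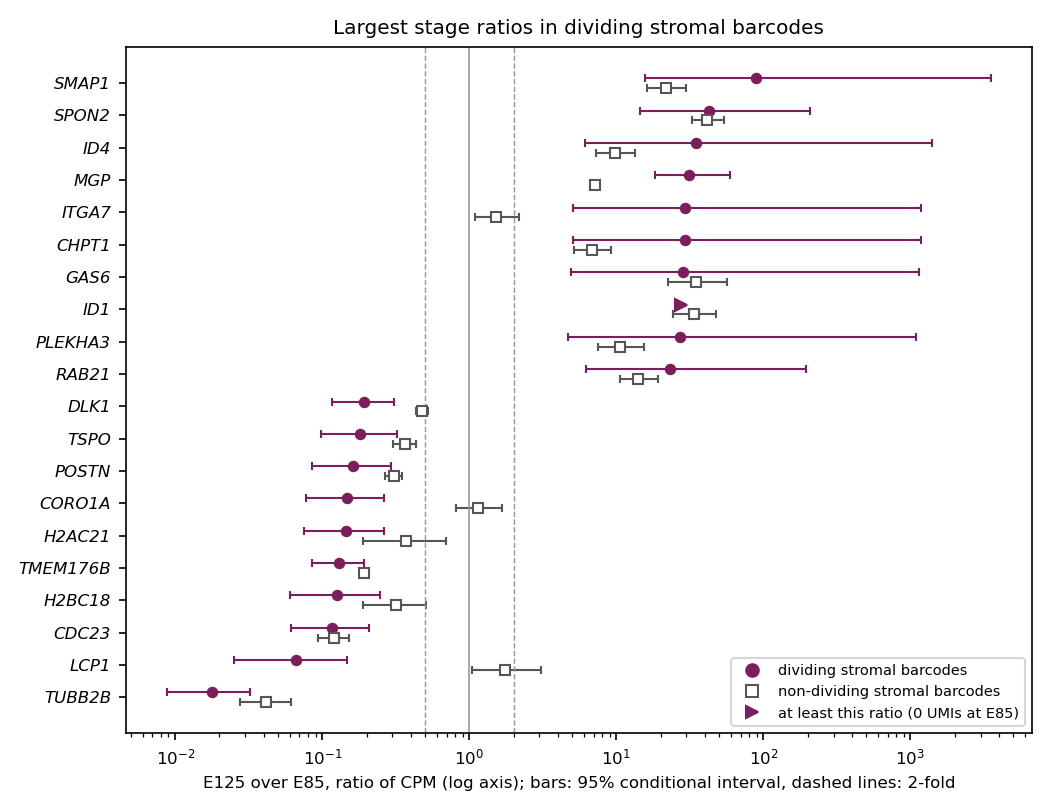
E125 over E85 ratio (log axis) of the 10 highest and 10 lowest genes in dividing stromal barcodes, beside the ratio in non-dividing stromal barcodes, with exact 95% bars for counting error and a triangle for a lower bound where a group had 0 UMIs. SPON2 and CDC23 lie close in both groups, and ITGA7 and LCP1, which each rest mainly on 1 barcode, lie far apart.

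Within the cell cycle lists, some genes differed between the stages while others did not pass 2-fold. Of mitotic cyclins and kinases, 5 of 18 were lower in E125 members and 0 higher (median -0.42). Outside the members 0 of 10 were lower and 2 higher. In members CCNB2 was 2.56-fold lower (2.05 to 3.21), CDK1 2.45-fold (1.85 to 3.25) and BUB3, a checkpoint protein, 2.38-fold. AURKB was 2.27-fold lower (1.75 to 2.95) and CKS2, a partner of CDK1, 2.07-fold. CCNB2 was detected in 58.0% of E85 and 44.3% of E125 members, against 0.817% and 1.27% of non-dividing barcodes. After thinning the shares were 44.0% and 19.7% of members and 0.542% and 0.740% of non-dividing barcodes. The kinetochore list had 0 of 19 past 2-fold (median -0.25) and the replication list 0 of 22 (0.03). Outside the members 2 of 20 and 2 of 32 were lower and 0 higher. The spindle list had 2 of 26 lower, the tubulins TUBB6 (3.59-fold) and TUBB (2.77-fold), with a median of -0.06. Outside the members 3 of 16 spindle genes were lower, TUBB among them, and 1 higher. Anaphase genes went both ways, with UBE2S, an enzyme of the anaphase-promoting complex, at 72.4 and 428 CPM, 5.91-fold higher (4.19 to 8.59), and CDCA3 at 308 and 85.9 CPM, 3.59-fold lower. Outside the members 5 of 10 anaphase genes were higher, UBE2S among them, and 1 lower. Of 15 measured chromatin genes, EZH2, SLBP, LMNB1 and SUZ12 were higher at E125. EZH2, SLBP and SUZ12 were also higher outside the members.

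Replication-dependent histone transcripts were lower in E125 members. The set was 3.05-fold lower (2.90 to 3.20), with 9 of its 10 measured genes past 2-fold, and 1.94-fold lower (1.84 to 2.05) outside the members, with 4 of 8. The linker histone genes stood at 2081 and 827 CPM for H1-2, 848 and 295 for H1-3, 1088 and 352 for H1-4 and 1510 and 438 for H1-5. The core histone gene H3C8 stood at 918 and 179 CPM, H2AC6 at 472 and 149, and H2BC18 was 7.89-fold and H2AC21 6.93-fold lower. Only H1-1 of the measured genes stayed within 2-fold, at 290 and 161 CPM. A median member held 11.5 histone UMIs in the E85 library (0 to 155) and 4 at E125 (0 to 107).

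The stage ratios of members and of non-dividing barcodes were last set against each other gene by gene. The genes with the widest excess in members were ITGA7 (log2 difference 4.26), CLDN10 (2.83), JAG1 (2.44), DUSP6 (2.30) and WIF1 (2.25). As for ITGA7, 63.0% of the E125 UMIs of CLDN10, a tight junction gene, and 60.5% of those of JAG1, a Notch ligand, came from 1 barcode. DUSP6, a phosphatase of ERK kinases, stood at 8.27 and 60.9 CPM, and WIF1, a WNT inhibitor, at 2.07 and 48.3. At the other end stood LCP1 (-4.74), EMP1 (-3.40), GBP5 (-3.11), CORO1A (-2.97) and CDC42EP5 (-2.80). EMP1, a membrane protein, was 1.65-fold higher at E125 in members and 17.4-fold outside them. GBP5, an interferon-induced GTPase, and CDC42EP5 had 0 UMIs in E85 members, so their differences are set by the floor.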

How the data were processed

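UMI counts, whole numbers without normalization, were deposited as 1 matrix of genes and barcodes per library. Cell Ranger is listed as 3.1 in the submitters' processing notes and as 6.0.0 per the file headers, and the genome build is not given in the sources used here. Of 27271 features, 10655 (39.1%) carry no symbol, 43 symbols stand on more than 1 feature, and 115 of 717 list genes without a feature under their symbol (MKI67, CCNB1 and COL3A1 among them) are not analysed here.

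The members and gene lists were chosen with earlier results of these data known. Counts of members and of non-dividing stromal barcodes were summed per library and scaled to CPM. Sums carry exact Poisson, ratios exact conditional and shares Clopper-Pearson 95% intervals, which cover counting error only. A group at 0 was set to a floor of 3 UMIs for a lower bound. The genes named are the 10 highest and 10 lowest of each comparison by ratio, among genes with a symbol, 50 summed UMIs and 50 CPM in at least 1 group, the 5 highest outside the cell cycle lists, the 5 highest and lowest differences of the stage ratio, and list members. No doublets were removed: Scrublet's own threshold called 2 and 0 barcodes, so the 155 and 557 with the highest scores were left out as an alternative. Other alternatives were thinning to 2000 UMIs, stricter rules, TMM and DESeq2 size factors, means over barcodes, other minimum counts and deeper non-dividing barcodes. Leaving out the deepest member, or barcodes with 5 or more immune or perivascular UMIs, was added after seeing the data. The code was tested on simulated data. Python 3.11.15, numpy 2.4.6, scipy 1.17.1, pandas 2.3.3, scanpy 1.11.5, R 4.3.3, edgeR 4.0.16 (TMM) and DESeq2 1.42.0 (size factors) were used.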

Additional observations from a re-analysis of the deposited data

How the results depend on the processing

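No paired analysis was possible because each stage has 1 library. The share of dividing barcodes among stromal barcodes lay between 3.30% and 3.71% at E85 and between 3.87% and 4.56% at E125 over the 8 alternatives. The share of replication UMIs was 11.96% at E85 and 13.7% at E125 after thinning, and at E125 it was 14.3% with 6 or more rule-gene UMIs and 14.8% with 3 or more stromal UMIs. Counts past 2-fold depended on the minimum of summed UMIs. With 20 or more, 802 genes were higher in E85 members, 1381 were lower in E125 members, and 1155 and 597 were higher and lower at E125 among members. With no minimum, 3290 and 2625 genes were higher in E85 and E125 members, which were 73.8% and 65.5% of those past 2-fold, and 1381 were lower in E125 members. The stage comparison then gave 1754 and 1229 genes in members and 2749 and 2079 in non-dividing barcodes. Thinning left 203 higher and 113 lower in the stage comparison of members, where 1385 genes were measured. Against deeper non-dividing barcodes, 448 genes were lower at E85 and 299 at E125. No named gene changed direction. The balance of higher and lower genes in members did depend on the processing. Higher genes were 36.8% and 40.0% of those past 2-fold in the main setting, and 73.8% and 65.5% with no minimum. At E125 they were 63.3% against deeper non-dividing barcodes and 51.1% with DESeq2 size factors. The depth of 483405 UMIs over the E85 members limits the stage comparison to 3793 genes.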
